A study of Mus musculus with 4 samples.

Results

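The genes described here are 10 markers of lung fibroblasts, taken as a list of symbols and all present among the 24063 gene symbols of the count tables. They fall into markers of the alveolar fibroblast (Tcf21), of the adventitial fibroblast that sheathes vessels and airways (Pi16, Dpt, Clec3b, Scara5, Serpinf1 and Gli1), of the activated fibroblast (Cthrc1 and Fap), and Thy1, a surface protein of many fibroblasts. RNA was sequenced from CD31-selected lung cells of C57BL6 mice (C57BL6J in the study's methods, which describe them as male), 8 weeks old, either 7 days after left pneumonectomy (PNX) or after a sham operation in which the chest was opened without PNX. Each group had 2 libraries, and each library pooled the cells of 2 mice, taken with antibody-coated beads and checked by flow cytometry for CD31, VE-cadherin and the absence of CD45. The day on which the lungs of sham-operated mice were taken is not stated separately in the sources used here.

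Fibroblasts build and repair the collagenous matrix of the lung. Alveolar fibroblasts lie in the gas-exchange septa, adventitial fibroblasts form the cuffs around larger vessels and bronchi, and after injury some fibroblasts take on an activated state with high secretion of collagen. The cells measured were prepared as endothelial cells (ECs), and which cells of the preparation made the RNA of these genes was not measured.

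The preparation held RNA of several cell types. Per transcript length (TPM, a share of all transcripts after division by length), Pecam1, which encodes CD31, had a mean of 954 in sham and 926 in post-PNX libraries, while Sftpc of alveolar type 2 cells had 7384 and 4683 and Scgb1a1 of club cells 10798 and 5114. Pdgfra, the receptor by which lung fibroblasts are usually recognized, had 76.2 and 63.5 TPM. Although the mice are described as male, none of the 44 Y chromosome genes had a count in any library and Xist had 31872 to 33792 normalized counts, so every library goes against that description. Libraries held 41367439 to 50952873 counts with 1 transcript per gene. A floor of 3 counts, which was set and not measured, lay between 0.059 and 0.0725 CPM (counts scaled to the library total) and covers counting error only. Libraries of the same group differed little more than counting noise, with a mean chi-square per gene of 1.74 in sham and 1.51 after PNX where noise alone gives about 1. Since nothing says how the pools of mice were made independent, the p-values below measure only the spread between these libraries, which may be technical. In bulk RNA, fewer cells of a type and less RNA per cell cannot be told apart.

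The genes sit on 8 chromosomes of the mouse genome. On GRCm38.p6, the assembly that mm10 denotes, Serpinf1 spans chr11:75410029-75422623, Gli1 chr10:127329882-127341579, Dpt chr1:164796663-164824274, Clec3b chr9:123150946-123157432, Pi16 chr17:29318796-29328903 and Scara5 chr14:65666403-65764826. Cthrc1 spans chr15:39076932-39087121, Fap chr2:62500936-62575509, Tcf21 chr10:22817263-22820143 and Thy1 chr9:44043384-44048579. Promoter windows from RefSeq were found for 4 of the 10 genes, Tcf21, Pi16, Dpt and Serpinf1. The 250 bases before the start site are shown for Serpinf1, the gene with the largest fold change, for Dpt, the gene with the highest level, and for Tcf21, whose level did not pass the test of a difference. Capitals mark matches to CAGCTG, an E-box that basic helix-loop-helix factors such as TCF21 can bind. The windows are chr11:75422624-75422873 on the minus strand, chr1:164796413-164796662 on the plus strand and chr10:22820144-22820393 on the minus strand, each written 5′ to 3′ in the direction of the gene.
Serpinf1: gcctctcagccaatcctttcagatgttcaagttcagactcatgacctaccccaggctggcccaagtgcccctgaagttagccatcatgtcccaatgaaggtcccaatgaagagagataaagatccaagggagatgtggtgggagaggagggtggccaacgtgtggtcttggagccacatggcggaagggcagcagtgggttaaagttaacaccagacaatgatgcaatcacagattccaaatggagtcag
Dpt: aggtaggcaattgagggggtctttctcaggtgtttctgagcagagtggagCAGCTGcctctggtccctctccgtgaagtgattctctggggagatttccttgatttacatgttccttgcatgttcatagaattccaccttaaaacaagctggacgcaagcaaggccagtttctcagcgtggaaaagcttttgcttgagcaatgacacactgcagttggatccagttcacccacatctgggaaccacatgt
Tcf21: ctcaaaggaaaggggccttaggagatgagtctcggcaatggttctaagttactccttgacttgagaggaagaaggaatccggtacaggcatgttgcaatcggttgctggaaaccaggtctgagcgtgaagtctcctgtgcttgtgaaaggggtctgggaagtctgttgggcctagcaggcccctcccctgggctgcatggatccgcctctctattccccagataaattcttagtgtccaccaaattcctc

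The 4 windows were searched on both strands for 3 motifs, of which the E-box was the first. The next was the TEAD site GGAATG, and the last was the GLI site TGGGTGGTC. The sole match was the E-box that begins 200 bases before the start of Dpt, at position -200. Of 32851 windows of that length, 13.0% held the E-box, 12.6% the TEAD site and 0.225% the GLI site. The GC content of the windows lay between 48.8% in Dpt and 52.4% in Tcf21 and Pi16.

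Compared with sham, 9 of the 10 fibroblast genes were higher after PNX with an adjusted p under 0.01 in edgeR's quasi-likelihood test (SE below is the standard error of its log2 fold change), against 29.3% of the 16208 genes tested that were higher and 27.8% that were lower by the same rule. Only Serpinf1 and Gli1 of the 10 also passed a log2 fold change of 1, with 5.9% of all genes called higher by this rule. The number called lower was 0, also with DESeq2 and at an adjusted p under 0.05, with 1.66% of all genes called lower by the main rule. Those shares are 957 higher and 269 lower genes with TMM scaling, which assumes that most genes keep their level, and scaling to 12 endothelial genes gave 1329 and 84, and 4 of the 10 genes called higher. The median log2 fold change of the 10 genes was 0.72, against 0.00 for all genes tested. In 9 of the 10 genes both post-PNX libraries lay above both sham libraries, which was so in 40.8% of all genes, and Tcf21 was the exception. The summed counts of the 10 genes went from 281 and 290.1 CPM in sham to 419.1 and 423 CPM after PNX.

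**Figure D1:**
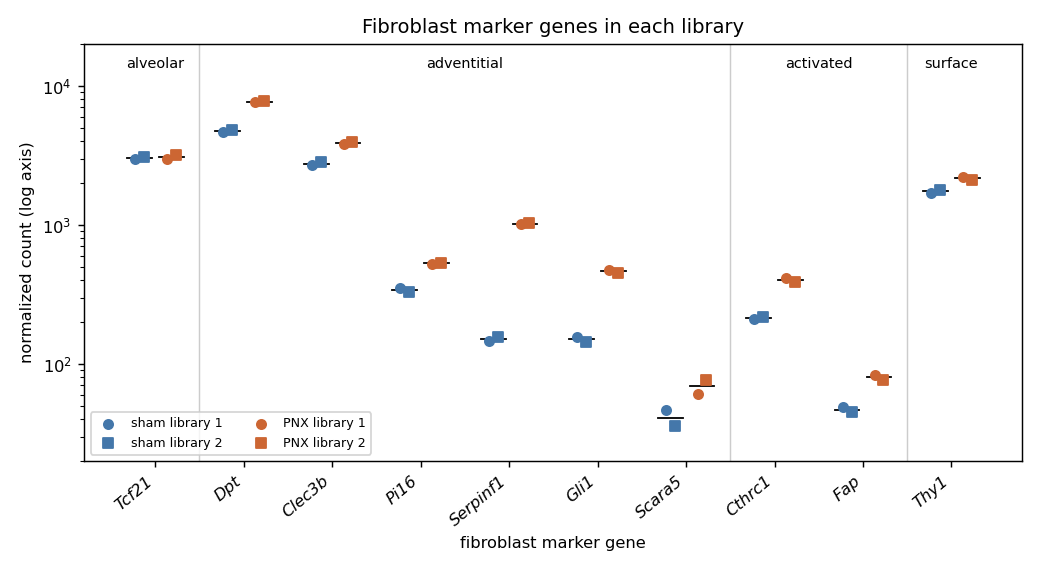
Normalized counts of the 10 fibroblast marker genes on a log axis, with a point for each library (blue, sham; orange, post-PNX) and a line at each group mean of 2 libraries. The groups are apart in every gene but Tcf21, and the gap is widest for Serpinf1, from 146 and 156 in sham to 1008 and 1026 after PNX.

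Tcf21 encodes the transcription factor that marks the alveolar and lipid-storing fibroblast from development onward. Its normalized counts, scaled to a common library size, were 2968 and 3093 in sham and 2970 and 3163 after PNX. The groups overlapped, and the log2 fold change was 0.02 (SE 0.033, edgeR adjusted p = 0.677). Its level was 85.6 ± 2.43 TPM (SD, n = 2) in sham and 84.6 ± 3.75 (SD, n = 2) after PNX. In both groups this was below Dpt and Clec3b and above the other markers. When libraries were scaled to 12 endothelial genes, the median of all genes moved to a log2 fold change of 0.26 and Tcf21 to 0.28 (edgeR adjusted p = 1.19e-08), a value next to that median.

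Among the adventitial genes, Serpinf1 had the largest change. It encodes pigment epithelium-derived factor, a secreted serpin known to inhibit angiogenesis. Its normalized counts were 146 and 156 in sham and 1008 and 1026 after PNX, so that the lowest post-PNX library was far above the highest sham library. The fold change was 6.75, a log2 fold change of 2.75 (SE 0.078, edgeR adjusted p = 1.73e-38). Over 13 settings of scaling, filter, test and left-out library, its log2 fold change stayed between 2.70 and 3.01. In TPM it went from 3.50 ± 0.163 (SD, n = 2) to 23.1 ± 0.281 (SD, n = 2), which moved it from below Cthrc1 and Pi16 to above both.

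Gli1, the transcription factor that Hedgehog signaling switches on in perivascular mesenchyme, was the second gene past the fold threshold. It had 156 and 144 normalized counts in sham and 472 and 453 after PNX, with no overlap. The log2 fold change was 1.62 (SE 0.095, edgeR adjusted p = 7.45e-23). Its level stayed low, at 1.42 TPM in sham and 4.28 TPM after PNX.

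The other adventitial genes rose by less than 2-fold. Dpt encodes dermatopontin, a matrix protein that takes part in collagen fibril assembly, and was the most abundant of the 10 genes per length, at 100.04 ± 1.66 TPM (SD, n = 2) in sham and 159 ± 0.663 (SD, n = 2) after PNX. Its normalized counts rose from 4663 and 4779 to 7679 and 7728, a log2 fold change of 0.71 (SE 0.025, edgeR adjusted p = 1.5e-33). Clec3b, which encodes the plasminogen-binding protein tetranectin, had 2675 and 2816 normalized counts in sham and 3839 and 3940 after PNX. Its log2 fold change was 0.50 (SE 0.031, edgeR adjusted p = 1.37e-21), the smallest of the adventitial genes.

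Pi16, a secreted protein that marks the adventitial fibroblasts shared by many organs, had 351 and 328 normalized counts in sham and 522 and 533 after PNX. Its log2 fold change was 0.63 (SE 0.076, edgeR adjusted p = 1.23e-10). Scara5, a scavenger receptor that takes up ferritin, was the least abundant of the 10, with 51 and 35 raw counts in sham and 62 and 69 after PNX. Its log2 fold change was 0.73 (SE 0.21, edgeR adjusted p = 0.0023). The tables list Scara5 as 2 transcripts that can share reads, and the more highly counted NM_028903 was used. The call of Scara5 rests on few counts: its adjusted p was 0.0418 without sham library 2, 0.076 without PNX library 2 (both edgeR) and 0.0613 with DESeq2's Wald test.

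The activated fibroblast genes rose by amounts within the range of the adventitial genes. Cthrc1 encodes a secreted protein by which collagen-producing fibroblasts of injured lung are recognized. It had 211 and 216 normalized counts in sham and 416 and 387 after PNX, a log2 fold change of 0.91 (SE 0.091, edgeR adjusted p = 2.02e-13). Fap encodes fibroblast activation protein, a cell-surface protease that cleaves after proline. It had 48.9 and 44.9 normalized counts in sham and 83.5 and 76.9 after PNX, a log2 fold change of 0.77 (SE 0.19, edgeR adjusted p = 0.000437). Without PNX library 1 its adjusted p was 0.0143 (edgeR), and it was 0.0297 with DESeq2's Wald test. Both genes were below the fold threshold with TMM scaling and above it when libraries were scaled to the endothelial genes, at 1.17 for Cthrc1 and 1.03 for Fap.

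Thy1, a glycoprotein anchored in the membrane of fibroblasts and, in mice, of T cells, had 1708 and 1773 normalized counts in sham and 2216 and 2111 after PNX. Its log2 fold change was 0.32 (SE 0.039, edgeR adjusted p = 1.4e-10). Over the same libraries all 6 T cell markers examined were lower after PNX at an adjusted p under 0.01 (edgeR), from Cd2 at -0.13 to Cd28 at -1.17. Their summed normalized counts were 3447 to 3457 in sham and 2443 to 2446 after PNX, with none of the 6 at 0.

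**Figure D2:**
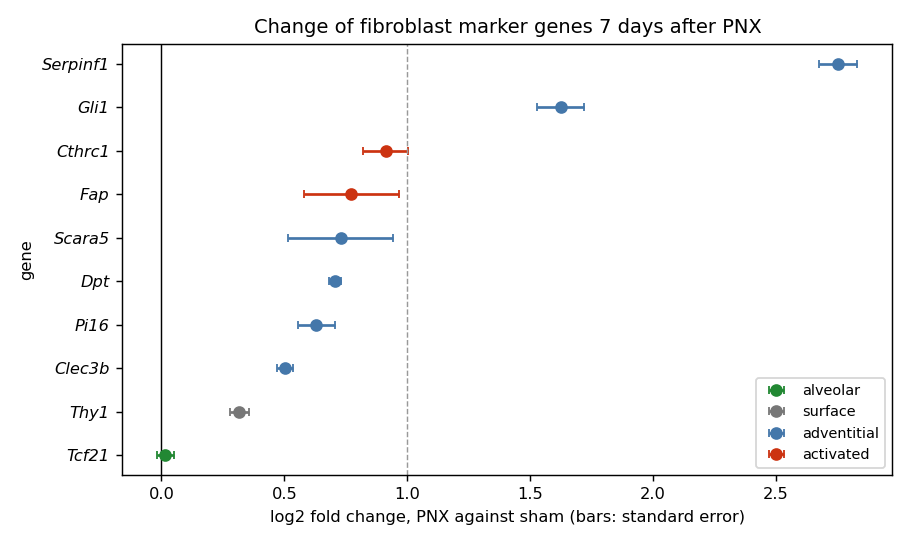
Log2 fold change of each fibroblast marker gene after PNX with its standard error from edgeR, coloured by the fibroblast state it marks, with a dashed line at 1. Serpinf1 (2.75) and Gli1 (1.62) lie beyond the line, Cthrc1 (0.91) and Fap (0.77) lie close to the remaining adventitial genes, and Tcf21 (0.02) lies at 0.

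The fibroblast states were then contrasted with each other. The 2 activated genes had a median log2 fold change of 0.84 and the 6 adventitial genes one of 0.72, against 0.02 for Tcf21. The difference of 0.12 between activated and adventitial medians ran from -0.02 without PNX library 1 to 0.24 without PNX library 2, so 1 library decides its direction. Ratios of genes within a library do not depend on how libraries are scaled, and 9 pairs were compared in this way, chosen with the values known. The ratio of Cthrc1 to Pi16 counts was 0.601 and 0.658 in sham and 0.797 and 0.726 after PNX. The difference of their log2 fold changes was 0.28, with a 95% interval from 0.05 to 0.52 computed from both standard errors taken as independent. For Fap against Pi16 the difference was 0.14, with an interval from -0.27 to 0.55, and for Fap against Cthrc1 it was -0.14, with an interval from -0.56 to 0.28.

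Within the adventitial group the log2 fold changes ran from 0.50 for Clec3b to 2.75 for Serpinf1. The ratio of Serpinf1 to Pi16 counts was 0.415 and 0.475 in sham and 1.93 in each post-PNX library, a difference of log2 fold changes of 2.12 with a 95% interval from 1.91 to 2.34. Gli1 exceeded Pi16 by 0.99, with an interval from 0.76 to 1.23. Against Tcf21 the difference was 0.69 for Dpt (interval from 0.61 to 0.77), 0.90 for Cthrc1 (0.71 to 1.09) and 2.74 for Serpinf1 (2.57 to 2.90). An exact permutation test over 4 libraries cannot give a two-sided p below 0.333, which is the value of each of the 9 ratios.

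To place the 10 genes among other fibroblast genes, lists of further markers were examined in the same fit. Of 10 other alveolar fibroblast genes, 7 were lower and 2 higher after PNX at an adjusted p under 0.01 (edgeR), with a median log2 fold change of -0.26. Inmt, a methyltransferase, had the largest fall, from 55798 and 55344 normalized counts in sham to 27345 and 26670 after PNX, a log2 fold change of -1.04. The integrin gene Itga8 fell by 0.38 and Limch1 by 0.23 on the log2 scale, while Npnt, which encodes the matrix ligand nephronectin, rose by 0.07. In sham, Inmt had a mean of 1883 TPM, Npnt 245, Limch1 138 and Itga8 88.6, each above the 76.2 TPM of Pdgfra. Some others of the list were below it, and which cells made the RNA of the list was not measured. Scaled to the endothelial genes, which moved the median of all genes to 0.26, the list had 4 genes higher and 3 lower. Its median was 0.00, and of the 16208 genes tested 9623 were higher and 1408 lower by the same rule. That scaling moves all genes alike, so the place of Tcf21 above the median of its list is the same by construction.

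Of 10 other adventitial genes, 7 were higher and 1 lower, 6 of them past a log2 fold change of 1, and the median was 1.26. Dcn, which encodes the collagen-binding proteoglycan decorin, rose from 2866 and 2859 normalized counts to 14188 and 14103, a log2 fold change of 2.30. Sema3c, a guidance factor, rose by 0.21 from a mean of 395 TPM in sham, a level far above the 76.2 TPM of Pdgfra. The difference of Efemp1, -0.06, did not pass the threshold (edgeR adjusted p = 0.0315). Dpp4, the closest relative of Fap, was the gene that fell, from 9532 and 9365 to 6559 and 6405, a log2 fold change of -0.54. Dpp4 is also made by epithelial and immune cells, and the sources of Dpp4 and Sema3c here were not measured.

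Of 12 other genes of the activated state, 11 could be tested and 10 were higher, 6 of them past a log2 fold change of 1, with a median of 1.03. Col1a1, the main chain of type I collagen, rose from 9013 and 9186 normalized counts to 45690 and 46174, a log2 fold change of 2.34. Ltbp2, which binds elastic microfibrils, rose by 1.03 and Postn, which encodes periostin, by 1.00, the latter just short of the fold threshold. Acta2, the actin of smooth muscle and myofibroblasts, rose by 0.54. Cthrc1 and Fap lay below the median of this list.

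Of 10 general fibroblast genes, 9 were higher, 8 of them past a log2 fold change of 1, with a median of 1.49. Col1a2 rose by 2.08, Mfap4, a microfibril protein, by 1.65, Col6a1 by 1.26 and the proteoglycan gene Bgn by 0.99. Pdgfra went the other way, from 14560 and 14250 normalized counts in sham to 12325 and 12250 after PNX, a log2 fold change of -0.23 (edgeR adjusted p = 3.53e-15). Scaled to the endothelial genes it was 0.03. Some of these genes, such as Bgn and Fstl1, are also made by ECs and mural cells.

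**Figure D3:**
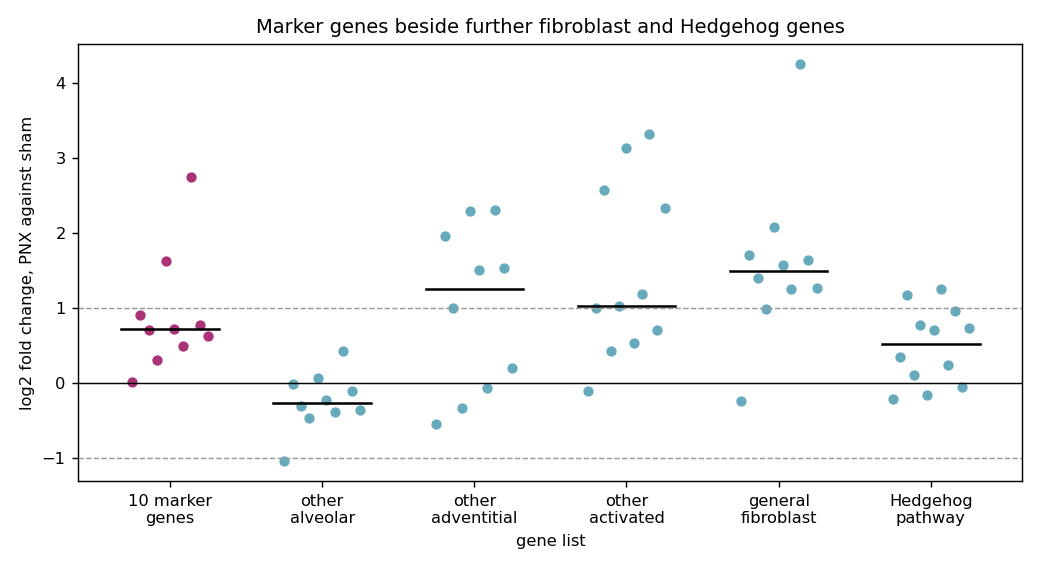
Log2 fold change of the 10 fibroblast marker genes and of the tested genes of 5 further lists, with a point for each gene, a line at the median of each list and dashed lines at 1 and -1. The medians are 0.72 for the 10 genes, -0.26 for other alveolar, 1.26 for other adventitial, 1.03 for other activated and 1.49 for general fibroblast genes, and 0.53 for the Hedgehog pathway.

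Relative to the summed counts of the 10 general fibroblast genes in the same library, only Serpinf1 and Gli1 were higher after PNX and the remaining 8 were lower. Over all libraries Bgn made up 23% of this sum, Col1a2 18.7%, Mfap4 16.8% and Pdgfra 6.79%. The sum thus consists mostly of genes that themselves rose after PNX, and a lower ratio to it is not a lower level per fibroblast. For each 1000 counts on the general genes, Tcf21 had 26.8 and 27.5 in sham and 10.6 and 11.2 after PNX, a log2 difference of -1.32. Dpt went from 42.0 and 42.5 to 27.5 and 27.3 (-0.63), and Cthrc1 from 1.90 and 1.92 to 1.49 and 1.37 (-0.42). Serpinf1 went from 1.31 and 1.39 to 3.61 and 3.62, a log2 difference of 1.42. Leaving out any gene of the general list changed no direction. Relative to Pdgfra alone, an alternative chosen after the data were seen, all 10 genes were higher after PNX, from 0.25 for Tcf21 to 2.98 for Serpinf1. A change of denominator shifts all 10 log2 ratios by the same amount, so the order of the genes is fixed by construction and only their place relative to 0 moves.

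**Figure D4:**
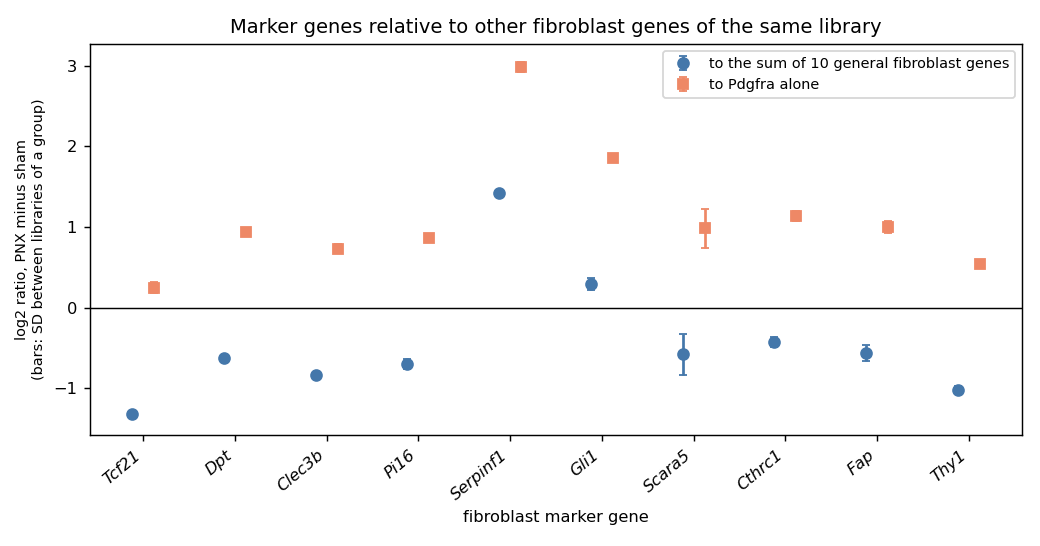
Log2 ratio of each fibroblast marker gene to other fibroblast genes of the same library, post-PNX minus sham, with the SD between libraries of a group, pooled over both groups, as bars. Circles use the sum of 10 general fibroblast genes, where Tcf21 is at -1.32 and Serpinf1 at 1.42, and squares use Pdgfra alone, where they are at 0.25 and 2.98.

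Gli1 is a target as well as an effector of Hedgehog signaling, in which a ligand binds PTCH receptors, frees SMO and lets GLI factors enter the nucleus. Of 13 other genes of the pathway, 12 could be tested, and 8 were higher and 2 lower after PNX at an adjusted p under 0.01 (edgeR). The receptor gene Ptch1, like Gli1 a target of the pathway, fell from 2643 and 2606 normalized counts to 2326 and 2391, a log2 fold change of -0.16. Hhip, a target that binds ligand, rose from 679 and 618 to 1560 and 1530, a log2 fold change of 1.25. The signal transducer gene Smo rose by 0.35, the coreceptor gene Boc by 0.24, and Sufu, which restrains GLI factors, fell by 0.20 on the log2 scale. Endothelial scaling moved the median of all genes by 0.26 and every gene alike. The falls of Ptch1 and Sufu are smaller than that shift. With that scaling the list had 10 genes higher and 2 that did not pass, and 9623 of the 16208 genes tested were higher. Among the ligand genes, Shh had 90.0 and 88.1 mean normalized counts in sham and after PNX, a log2 fold change of -0.05 (edgeR adjusted p = 0.82). Dhh had 581 and 629, above Gli1 in both groups, a log2 fold change of 0.11 (edgeR adjusted p = 0.137). Ihh was low, at 7.36 and 5.18 mean normalized counts, and was not tested.

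Markers of neighbouring cell types moved over the same libraries. Of 8 smooth muscle and pericyte genes, 6 were higher at an adjusted p under 0.01 (edgeR), and their summed normalized counts went from 7231 to 7268 in sham to 10075 to 10203 after PNX. Of 7 mesothelial genes, 6 were higher, and their sum went from 13317 to 13437 in sham to 25876 to 26209 after PNX. Of 7 macrophage genes listed, 6 were found in the tables and all 6 were higher, with sums of 19888 and 20178 in sham and 46746 and 46951 after PNX, and of 6 genes shared by leukocytes 4 were higher and 1 lower, with Ptprc (CD45) at 0.00. Of 6 adipocyte genes, 4 were tested and 3 were higher, with Adipoq at 0.963 and 92.6 mean normalized counts in sham and after PNX and Lep at 0 in both sham libraries. The fourth, Cidec, was lower, at 1087 and 1044 in sham and 933 and 911 after PNX (log2 fold change -0.21, edgeR adjusted p = 0.000294), and made up most of the summed adipocyte counts of 1061 to 1105 in sham and 1474 to 1511 after PNX. The 12 endothelial genes had summed counts of 551914 and 557596 in sham and 462219 and 463894 after PNX, and 10 of them were lower. Of 8 epithelial genes 7 were lower, with sums of 375581 and 377352 in sham and 220488 to 224027 after PNX. The part of these cell types in the changes of the fibroblast genes was not tested.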

How the data were processed

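CD31-selected mouse lung cells gave 4 libraries, 2 sham and 2 from 7 days after PNX. Per the study's methods the stranded mRNA libraries were read from both ends against mm10, and the submitters' processing notes name STAR. The counting program is not given in the sources used here. The authors deposited whole-number counts per RefSeq transcript, not normalized. The FPKM values that the authors deposited were not used, and their deposited TPM values served only to compare levels between genes.

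Since transcripts of 1 gene can hold the same reads, each symbol was represented by its transcript with the highest summed count. Counts were filtered with filterByExpr, TMM-scaled and tested with edgeR 4.0.16 (quasi-likelihood F test, R 4.3.3, no covariates, Benjamini-Hochberg adjustment over 16208 genes). SE is the size of the log2 fold change over the square root of F. A call needs a change past 1 on the log2 scale with an adjusted p below 0.01. The test was tried on simulated data first.

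The 10 genes, their classes, the further lists and the motifs were chosen with earlier results of these data known. Genes named are the 10, the 4 most abundant of each fibroblast or Hedgehog list, Col1a1, Postn, Acta2, Pdgfra, Dpp4, Ptch1, Hhip and sorting markers, besides examples from other cell types chosen with their values seen. Alternatives were size factors and the Wald test of DESeq2 1.42.0, library size alone, scaling to 12 endothelial genes, no filter, a mean of at least 50 counts, the replicate block, sums over transcripts, glmTreat, an adjusted p of 0.05, other ratio denominators and each library left out.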

Additional observations from a re-analysis of the deposited data

How the results depend on the processing

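The number of fibroblast genes called higher was 2 under every setting but scaling to the endothelial genes, which gave 4, with Cthrc1 (1.17) and Fap (1.03) added. That scaling also gave 0 alveolar genes called lower, as did glmTreat, 4 Hedgehog genes called higher, and 1329 higher and 84 lower genes over all tested against 957 and 269 with TMM. It moved the median of all genes by 0.26. Over all genes, 160 were called lower with a mean of at least 50 counts, and glmTreat called 604 higher and 39 lower. The number of the 10 genes with an adjusted p under 0.01 was 9, and it was 7 with DESeq2's Wald test. It was 10 under endothelial scaling, where 9623 of the 16208 genes tested were higher by the same rule, against 4743 with TMM. With a library left out, the log2 fold change of Tcf21 ran from -0.028 to 0.064, negative without sham library 1 (-0.015) and without PNX library 2. The difference between activated and adventitial medians was -0.022 to 0.24 with a library left out, negative without PNX library 1. With Pdgfra as the denominator the ratio turned to 0.25 for Tcf21, 0.86 for Pi16, 0.94 for Dpt, 0.73 for Clec3b, 0.98 for Scara5, 1.14 for Cthrc1, 1.00 for Fap and 0.54 for Thy1. Endothelial scaling and the Pdgfra denominator each shift all genes alike, which by construction moves their signs and calls. glmTreat tests against a log2 fold change of 1, so it calls fewer genes by construction, and the filter at a mean of 50 counts leaves out genes below it. The cause of the remaining changes was not tested.

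The libraries of both groups carry the replicate numbers 1 and 2 but come from different mice, and deviations of same-numbered libraries correlated at 0.0305. With the replicate block 2 of the 10 genes were called higher and 9 passed an adjusted p of 0.01, as without it. With 2 libraries per group, depth limits Scara5 and Fap most, at under 100 counts in each library.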

Other observations

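Among further fibroblast genes outside the naming rule, chosen after their values were seen, several of the activated state had larger changes than Cthrc1 and Fap. Timp1, an inhibitor of matrix metalloproteinases, had 230.1 and 188 normalized counts in sham and 2132 and 2057 after PNX, a rise of 3.32 on the log2 scale. Tnc, the matrix glycoprotein tenascin C, had 1409 and 1518 in sham and 8766 and 8728 after PNX, a rise of 2.58. Lrrc15, a surface protein of activated fibroblasts, had 3.62 and 8.16 in sham and 53.1 and 50.1 after PNX, and its rise of 3.14 rests on few sham counts. Grem1, which blocks bone morphogenetic proteins, had 1.53 and 8.39 mean normalized counts and was not tested. Col12a1 and Fst of the same list rose less than Cthrc1 and Fap, by 0.43 and 0.71, and Runx1, at -0.10, did not pass the threshold.

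Of the adventitial and general genes, Lum, the collagen-binding proteoglycan lumican, had 72.5 and 43.8 normalized counts in sham and 1148 and 1110 after PNX, a rise of 4.26 on the log2 scale (adjusted p below 0.01 with edgeR, as for each gene here that rose). Ccl11, which attracts eosinophils, went from 15.7 to 78.4 mean normalized counts and Cd248, a surface protein of perivascular mesenchyme, from 260.0 to 1008. The adventitial gene Adh7, at -0.32, did not pass the threshold (edgeR adjusted p = 0.0239). The T cell gene Cd28 and the alveolar gene Inmt are the genes of the lists that fell past the fold threshold outside the epithelial list, where Scgb1a1 did so at -1.04.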
